A study of Mus musculus with 9 samples.

Results

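The proteasome subunit genes were taken as the transcription start site (TSS) regions whose gene symbol is Psma, Psmb, Psmc, Psmd or Psme followed by digits, pseudogenes dropped. This gave 38 of the 33844 TSS regions, and all 38 passed the filter on low counts, as did 33747 of all regions. They comprised 12 core subunits, 19 regulatory genes, 5 immunoproteasome genes and 2 tissue-restricted core subunits. The core genes were split into 5 alpha ring and 7 beta ring genes. The regulatory genes were split into 4 ATPases, 11 non-ATPases, 2 assembly chaperones and 2 activators other than Psme1 and Psme2, namely Psme3 and Psme4. Of the 43 subunit genes listed, 5 have no TSS region in the table analysed here, namely Psma2, Psma4, Psmc2, Psmc5 and Psmd10, and for these only peaks are given.

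The series measured chromatin accessibility by ATAC-seq, in which a transposase cuts open DNA and tags it for sequencing, in cardiomyocyte nuclei of CD1 (ICR) mice. The stages were postnatal days 1, 14 and 56 (P1, P14 and P56), with 3 libraries each that the labels call biological triplicates. Each library pooled 12 hearts at P1 and 6 to 7 hearts at P14 and P56, and nuclei were sorted on the antigen Pcm1, per the labels' protocols. All mice share strain and tissue, and the labels give no genotype, sex or batch; the growth protocol mentions surgery but does not tie it to these hearts. The values are averages over pooled nuclei, so a more open start in each nucleus and more nuclei with an open start cannot be told apart.

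The proteasome is the protease complex that degrades proteins marked with ubiquitin. Its core particle is a barrel of alpha rings, which gate entry, around beta rings, which hold the catalytic sites; a regulatory particle caps the barrel, binds ubiquitin chains, removes them and unfolds the substrate. Interferon induces a variant, the immunoproteasome, in which Psmb8, Psmb9 and Psmb10 replace the constitutive catalytic subunits Psmb5, Psmb6 and Psmb7, and a ring activator made of Psme1 and Psme2 opens the gate without ubiquitin. In heart muscle the proteasome clears worn contractile proteins and works with muscle-specific ubiquitin ligases.

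The bases before the start are shown for the genes on which the results turn: Psme1, the one member called between stages, with its partner Psme2, Psmd12, which had the next smallest p, and the induced catalytic subunits Psmb8 and Psmb9 with Psmb5 and Psmb6, which they replace. Each is the 250 bases before the RefSeq start in GRCm38.p6, 5′ to 3′ on the strand of the gene, and capitals mark the matches to the motifs given after them. The windows lie at chr14:55578244-55578493 (plus strand), chr14:55591102-55591351 (minus strand), chr11:107479278-107479527 (plus strand), chr17:34187331-34187580 (minus strand), chr11:70525107-70525356 (plus strand), chr17:34197945-34198194 (plus strand) and chr14:54617996-54618245 (minus strand).
Psme1: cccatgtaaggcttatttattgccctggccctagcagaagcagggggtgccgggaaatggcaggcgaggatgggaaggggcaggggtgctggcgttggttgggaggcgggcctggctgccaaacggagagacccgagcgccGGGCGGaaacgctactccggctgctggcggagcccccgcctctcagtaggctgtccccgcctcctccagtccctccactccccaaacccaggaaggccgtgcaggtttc
Psme2: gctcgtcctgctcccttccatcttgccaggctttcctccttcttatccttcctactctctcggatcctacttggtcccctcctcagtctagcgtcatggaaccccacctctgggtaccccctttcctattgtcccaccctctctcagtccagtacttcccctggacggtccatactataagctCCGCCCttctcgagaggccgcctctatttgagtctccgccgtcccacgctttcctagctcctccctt
Psmd12: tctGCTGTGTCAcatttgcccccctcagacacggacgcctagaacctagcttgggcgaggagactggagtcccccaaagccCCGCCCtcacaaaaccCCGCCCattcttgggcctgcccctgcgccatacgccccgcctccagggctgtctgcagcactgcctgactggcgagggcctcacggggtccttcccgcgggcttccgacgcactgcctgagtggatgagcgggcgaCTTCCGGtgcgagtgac
Psmb9: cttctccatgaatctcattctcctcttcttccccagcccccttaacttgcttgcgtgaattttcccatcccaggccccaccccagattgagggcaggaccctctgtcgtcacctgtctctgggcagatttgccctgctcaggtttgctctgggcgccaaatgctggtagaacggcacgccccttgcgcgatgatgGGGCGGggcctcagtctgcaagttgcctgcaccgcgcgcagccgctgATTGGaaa
Psmb6: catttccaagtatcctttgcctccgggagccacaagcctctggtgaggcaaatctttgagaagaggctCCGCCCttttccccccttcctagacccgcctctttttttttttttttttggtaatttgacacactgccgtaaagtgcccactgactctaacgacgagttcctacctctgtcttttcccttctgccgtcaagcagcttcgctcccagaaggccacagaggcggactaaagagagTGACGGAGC
Psmb8: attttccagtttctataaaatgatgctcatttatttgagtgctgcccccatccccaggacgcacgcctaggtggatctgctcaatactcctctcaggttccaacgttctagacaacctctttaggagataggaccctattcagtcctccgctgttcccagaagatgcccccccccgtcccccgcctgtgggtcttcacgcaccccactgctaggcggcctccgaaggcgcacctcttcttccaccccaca
Psmb5: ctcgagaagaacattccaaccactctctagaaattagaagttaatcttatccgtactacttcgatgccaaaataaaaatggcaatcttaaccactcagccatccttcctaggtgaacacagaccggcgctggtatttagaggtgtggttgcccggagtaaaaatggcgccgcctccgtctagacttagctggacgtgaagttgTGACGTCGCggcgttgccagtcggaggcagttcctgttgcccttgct

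RefSeq windows were held for 36 of the 43 listed subunit genes, and 6 motifs were searched on both strands in the 250 bases; none of their letter strings contains another. Each gene counts with 1 window, that of its first listed start, where RefSeq gives several. For Psma6 this window (chr12:55383972-55384221) is not at the start that lies in its peak (chr12:55398171-55399439). The ETS core CCGGAAG was in 10 of the 36 subunit windows (27.8%), against 7.05% of the 27025 windows of all genes. The GC box GGGCGG was in 21 (58.3%), against 32.9%, and the CCAAT box in 14 (38.9%), against 34.5%. The antioxidant response element core TGACNNNGC was in 5 (13.9%), against 10.1%, the interferon-stimulated response element, GAAA, any 2 bases and GAAA, in 3 (8.33%), against 3.04%, and the E-box CACGTG in 4 (11.1%), against 6.05%. Subunit windows were richer in G and C, with a median of 57.4% against 52.0% over all windows, and the part of this in the motif shares was not tested. The Psme1 window held 1 GC box, from -109 to -104 relative to the start, and the Psme2 window 1 from -67 to -62. The Psmb5 window held the antioxidant core TGACGTCGC from -47 to -39, and the Psmb6 window TGACGGAGC from -9 to -1. The Psmd12 window held an ETS core from -17 to -11, 2 GC boxes and an antioxidant core from -247 to -239. The Psmb9 window held a GC box and a CCAAT box, the Psmb6 window also a GC box, and the Psmb8 window none of the 6. Genes with a match to the interferon element were Psmb3, Psmd4 and Psmd9, none of them in the immunoproteasome group.

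The P1 libraries held between 1414979 and 2167369 TSS counts, the P14 libraries between 481217 and 893032 and the P56 libraries between 874639 and 1468352, and member counts ran from 1 to 207 per library, so P14 values are the least precise. Levels are CPM on TMM-scaled library sizes. The width of the TSS region is not stated, so levels of different genes were not compared at the TSS. Over P1, P14 and P56 in turn, 12 cardiomyocyte markers summed to 622 to 1290, 958 to 1200 and 1140 to 2760 CPM. P1 replicate 1 was the lowest library and P56 replicate 2 the highest. The other P1 libraries were at 1050 and 1290 CPM, and the other P56 libraries at 1140 and 1498 CPM. Likewise 12 leukocyte markers summed to 307 to 365, 295 to 347 and 319 to 388 CPM, 10 endothelial markers to 485 to 619, 615 to 660 and 559 to 649 CPM, and 10 fibroblast markers to 341 to 399, 304 to 361 and 322 to 339 CPM. Between P56 and P1 the fibroblast markers had a median log2 change of -0.31, with 8 of 10 below 0; edgeR called 0, and 4 were lower and 1 higher at an unadjusted p below 0.05. No marker on these lists could be at 0 in all libraries, because every deposited region had a mean count of at least 10. The strongest 10% of TSS regions took 32.6% to 33.4% of the counts of a P1 library, 34.6% to 36% at P14 and 35.9% to 38.6% at P56, again most in P56 replicate 2. That library was the highest of the 9 for 22 of the 38 members (57.9%) and for 20.7% of all tested regions, and the part of these differences in the results was not tested.

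The comparison of P56 with P1 asked how far accessibility in these TSS regions differed between adult and newborn cardiomyocytes. Of the 38 members, 1 rose, Psme1, and 0 fell, by edgeR's quasi-likelihood test with Benjamini-Hochberg adjustment over all tested regions (adjusted p below 0.05). Over all regions 1.72% were called higher and 0.806% lower, so the members' count is near the background. Those were 581 regions higher and 272 lower; library size alone gave 319 and 778, the factors of the peak table gave 332 and 339, and loess offsets 121 and 98. At an unadjusted p below 0.05, 13 members were higher and 0 lower, against 11.3% and 10.3% of all regions. The 13 became 3 without P56 replicate 2, 4 without P1 replicate 1, 5 with library size alone and 5 at a mean count of at least 20. The log2 change was above 0 for 34 of 38 members and for 49.3% of all regions. Its median over the members was 0.33 (1.26-fold), within a range of -0.34 to 1.03, and the median over all regions was -0.01. With library size alone the medians of the members and of all regions were 0.20 and -0.14, with loess offsets 0.18 and 0, and at a mean count of at least 20 they were 0.20 and 0.01. Without P56 replicate 2 they were 0.22 and -0.01, with 29 of 38 members above 0. In 11 of 38 members all P56 libraries lay above all P1 libraries (10.9% of all regions did so), and in 0 members all lay below (13.2% of all regions). The median standard error (SE) of a member's log2 change was 0.255, within a range of 0.172 to 0.358. Each SE of a log2 change was derived as its absolute value over the square root of edgeR's F statistic. It is thus approximate and uses the spread of all 9 libraries, not that of the compared stages alone.

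By group, the median log2 change of P56 minus P1 was 0.41 for the 12 core genes, 0.33 for the 19 regulatory genes and 0.64 for the 5 immunoproteasome genes. All 12 core genes, 16 of 19 regulatory genes and 4 of 5 immunoproteasome genes were above 0. Within the core, the beta ring genes had a median of 0.47 and the alpha ring genes 0.16. The differences between these groups were not tested. Without P56 replicate 2 the medians were 0.10, 0.28 and 0.27, with 8 of 12, 14 of 19 and 5 of 5 genes above 0. Leaving out P1 replicate 1 as well gave a core median of -0.03, with 5 of 11 tested genes above 0, and the other medians were 0.16 and 0.28. With loess offsets, which remove each library's trend of signal with abundance, they were 0.22, 0.09 and 0.45, and 28 of 38 members were above 0.

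**Figure D1:**
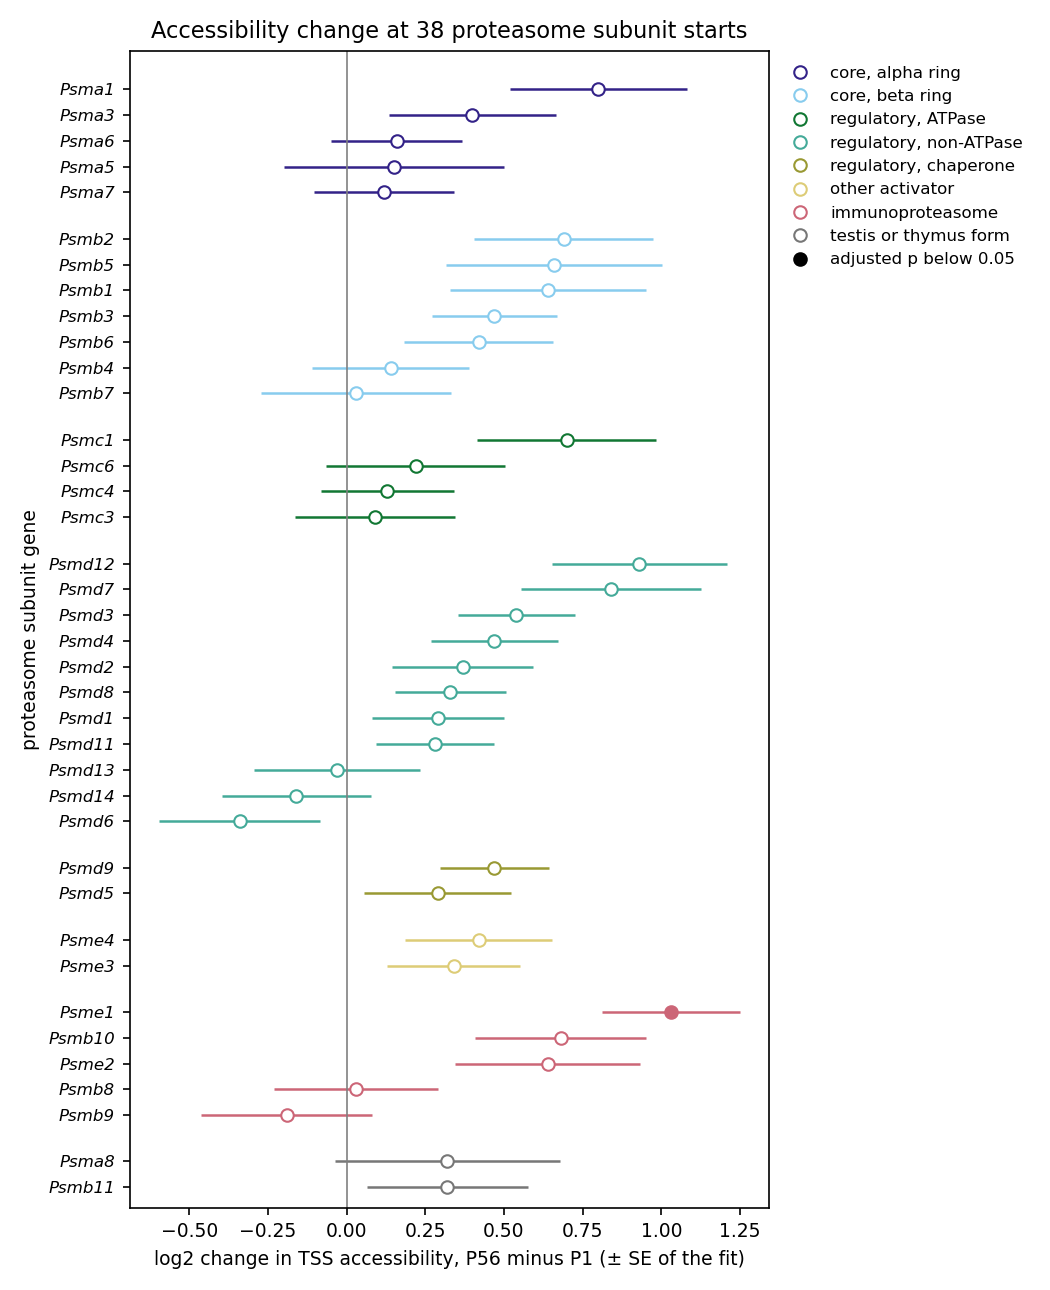
Log2 change in TSS accessibility, P56 minus P1, for the 38 proteasome subunit genes by class, with bars of the SE of the fit and a filled point for an adjusted p below 0.05. The filled point is Psme1 at 1.03, and 34 of the 38 points lie to the right of 0.

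Median log2 CPM of the regulatory genes was 5.65, 5.80 and 5.66 in the P56 libraries, against 5.47, 5.32 and 5.45 in the P1 libraries. The P56 libraries all lay above the P1 libraries. For the immunoproteasome genes the medians were 5.13, 5.68 and 5.15 at P56, against 4.86, 5.11 and 4.86 at P1. These did not overlap, although P56 replicate 1 exceeded P1 replicate 2 by only a little. The median of 5 genes is the level of a single gene, which differed between libraries. It was Psmb9 (33.5 CPM) in P56 replicate 1 and Psmb8 (32.9 CPM) in P1 replicate 2. The log2 changes of these genes were -0.19 and 0.03, so the separation of the medians is not read as a rise of the group. For the core genes they were 4.74, 5.68 and 4.90 at P56, against 4.46, 4.61 and 4.97 at P1. Here the stages overlapped, and P56 replicate 2 stood apart from its own stage.

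**Figure D2:**
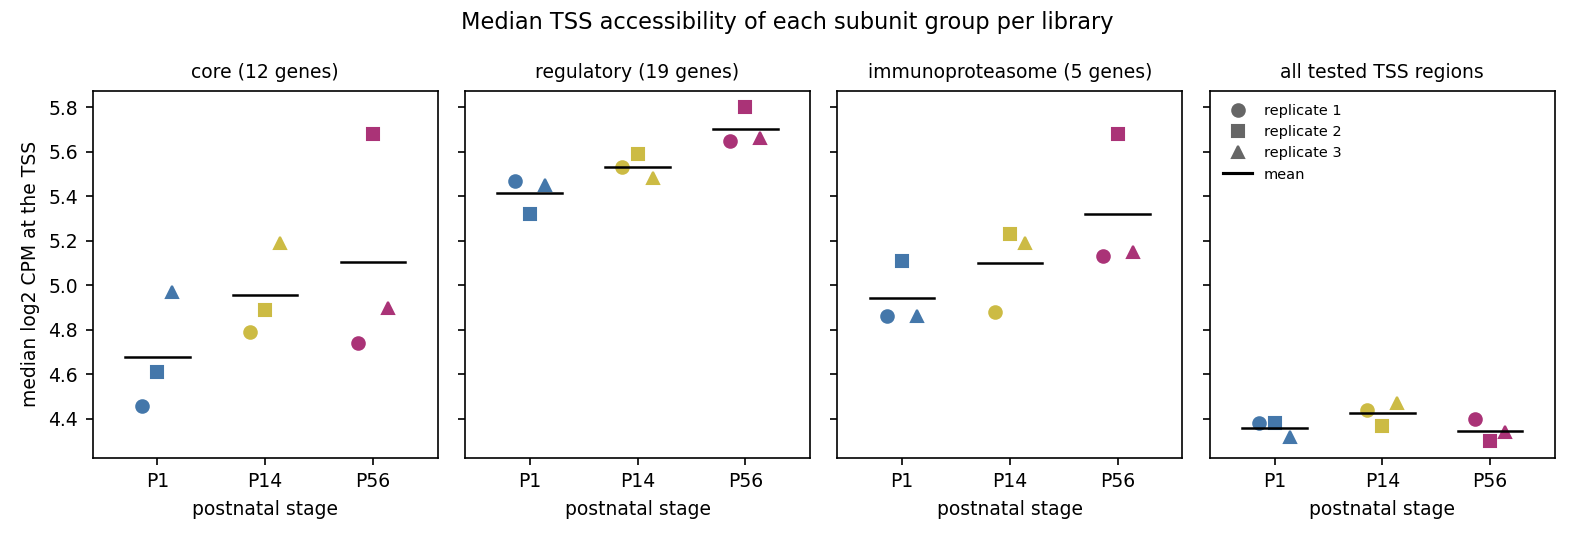
Median log2 CPM at the TSS of each subunit group and of all tested TSS regions in each of the 9 libraries, by postnatal stage, with the mean of a stage as a line. P56 replicate 2 is at 5.68 for the core and the immunoproteasome genes and 5.80 for the regulatory genes, while the median of all regions stays between 4.30 and 4.47.

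Among the alpha ring genes, Psma1 had the smallest p. It had 26.4, 48.2 and 24.5 CPM in the P56 libraries, against 13.9, 19.9 and 24.7 CPM in the P1 libraries. The lowest P56 library was just below the highest P1 library, and the log2 change of 0.80 ± 0.282 (SE, n = 3 each) was not called (edgeR adjusted p = 0.0998). It was 0.41 without P56 replicate 2 and 0.17 without both that library and P1 replicate 1. Psma7 had the smallest change of the ring, with 47.6, 70.7 and 43.1 CPM at P56, against 58.2, 44.5 and 47.3 CPM at P1, a log2 change of 0.12 that lies below 0 with library size alone (-0.03), with loess offsets (-0.11) and without P56 replicate 2 (-0.15). The start of Psma7 lies 19 bp from that of Ss18l1 on the other strand, and the counts carry no strand. Psma3, Psma5 and Psma6 had log2 changes of 0.15 to 0.40, none of them called.

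In the beta ring, Psmb5, Psmb6 and Psmb7 carry the chymotrypsin-like, caspase-like and trypsin-like activities, and Psmb1, Psmb2, Psmb3 and Psmb4 are structural. Psmb2 had 22.0, 42.1 and 23.3 CPM in the P56 libraries, against 15.2, 16.4 and 23.6 CPM in the P1 libraries. The stages overlapped, and the log2 change of 0.69 ± 0.285 was not called (edgeR adjusted p = 0.155) and was 0.30 without P56 replicate 2. For Psmb5 the values were 10.6, 21.8 and 8.16 CPM at P56, against 9.56, 8.91 and 8.40 CPM at P1. P56 replicate 2 stood far above the other libraries and P56 replicate 3 lay below all of P1, and the log2 change was 0.66 ± 0.343 (adjusted p = 0.26), or 0.08 without that library.

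Psmb6 had 38.8, 57.2 and 45.4 CPM at P56, against 38.2, 32.2 and 35.2 CPM at P1. All P56 libraries lay above P1, the lowest by less than 1 CPM, with a log2 change of 0.42 ± 0.236 (edgeR adjusted p = 0.296), or 0.24 without P56 replicate 2. Psmb7 had 14.1, 22.6 and 17.5 CPM at P56, against 12.6, 13.0 and 27.8 CPM at P1, and the stages overlapped with P1 replicate 3 the highest library. Its log2 change of 0.03 ± 0.303 was below 0 in 7 of 20 alternatives. Psmb3 was the other beta ring gene without overlap between P56 and P1, with a log2 change of 0.47 ± 0.199 (adjusted p = 0.162).

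Among the ATPases of the regulatory particle, which unfold substrates, Psmc1 had 23.8, 27.1 and 23.3 CPM in the P56 libraries, against 13.5, 15.1 and 17.3 CPM in the P1 libraries. The stages did not overlap and the P56 libraries lay close together, with a log2 change of 0.70 ± 0.284 that was not called (edgeR adjusted p = 0.149) and that ran from 0.51 to 0.81 over the 20 alternatives. Psmc3 had the smallest change of the ATPases, with 26.4, 37.6 and 30.3 CPM at P56, against 34.3, 26.7 and 27.8 CPM at P1. Its stages overlapped, and the log2 change of 0.09 lay below 0 with library size alone (-0.05), with loess offsets (-0.06) and without P56 replicate 2 (-0.08). Psmc4 and Psmc6 had log2 changes of 0.13 and 0.22.

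Among the non-ATPases, Psmd12, a scaffold subunit of the lid, had 28.2, 54.2 and 43.1 CPM in the P56 libraries, against 15.6, 17.8 and 32.6 CPM in the P1 libraries. P1 replicate 3 lay above the lowest P56 library, and the 1.91-fold difference (log2 0.93 ± 0.278) missed the threshold (edgeR adjusted p = 0.0613). It was called without P1 replicate 3 (log2 1.33, adjusted p = 0.0167) and without P56 replicate 1 (log2 1.15, adjusted p = 0.0191), and its log2 change lay between 0.41 and 1.33 over all 20 alternatives. Psmd7, which forms a pair with the deubiquitinase Psmd14 in the lid, had a log2 change of 0.84 ± 0.287 without overlap between stages (adjusted p = 0.094) and was called without P56 replicate 1. Psmd14 itself was at -0.16 ± 0.237. At the other end was Psmd6, another lid subunit, with 22.9, 29.3 and 31.5 CPM at P56, against 30.0, 37.0 and 38.9 CPM at P1. Its stages overlapped, and the log2 change of -0.34 ± 0.257 (adjusted p = 0.453) stayed below 0 in all 20 alternatives.

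The ubiquitin receptor Psmd4 had a log2 change of 0.47 ± 0.203, and Psmd2, which docks shuttle proteins, 0.37 ± 0.224. The P56 libraries of Psmd1, Psmd2, Psmd3, Psmd7 and Psmd8 all lay above those of P1, which makes 5 of the 11 non-ATPases (10.9% of all regions). The assembly chaperone Psmd9 had 92.5, 125 and 101 CPM at P56, against 85.6, 68.5 and 76.1 CPM at P1, again without overlap, and a log2 change of 0.47 ± 0.172 (edgeR adjusted p = 0.115). Psmd5, another chaperone of base assembly, had 47.6, 51.2 and 41.9 CPM at P56, against 36.5, 37.0 and 42.0 CPM at P1, a log2 change of 0.29 ± 0.233 with an overlap of 1 library on each side.

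Of the activators outside the interferon-induced ring, Psme4, a large single-chain cap linked to the degradation of acetylated histones, had 51.1, 156 and 88.5 CPM in the P56 libraries, against 80.8, 74.0 and 68.3 CPM in the P1 libraries. P56 held both the lowest and the highest of these 6 values, and the log2 change of 0.42 ± 0.233 became -0.12 without P56 replicate 2 and 0.73 without P56 replicate 1 (edgeR adjusted p = 0.0319). Psme3, which forms a nuclear ring, had 48.5, 61.0 and 67.6 CPM at P56, against 42.6, 51.4 and 45.7 CPM at P1. The stages overlapped, with a log2 change of 0.34 ± 0.210 (adjusted p = 0.346).

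In the immunoproteasome group, Psme1 (ENSMUSG00000022216, chr14:55578494-55581527, plus strand) had 75.8, 140 and 92.0 CPM in the P56 libraries, against 47.8, 50.7 and 53.0 CPM in the P1 libraries. The stages did not overlap, the P1 libraries lay within 6 CPM of each other and the P56 libraries were spread widely. Psme1 rose 2.05-fold (log2 1.03 ± 0.219, edgeR adjusted p = 0.0119). At P14 it had 52.2, 99.1 and 51.2 CPM, with replicate 2 inside the P56 range and the other two libraries inside the P1 range. It was called in 17 of 20 alternatives, and the adjusted p was 0.0545 with loess offsets (log2 0.79), 0.0549 without P1 replicate 2 (log2 1.03) and 0.0827 without P56 replicate 2 (log2 0.73).

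Its partner in the ring, Psme2, had 29.1, 49.7 and 57.1 CPM at P56, against 23.9, 36.3 and 27.3 CPM at P1. P1 replicate 2 lay inside the P56 range, and the log2 change of 0.64 ± 0.294 was not called (edgeR adjusted p = 0.201). The catalytic subunit Psmb10 had 23.8, 54.2 and 33.8 CPM at P56, against 20.0, 26.7 and 24.7 CPM at P1. Its stages overlapped, the log2 change was 0.68 ± 0.273 (adjusted p = 0.148), and it was called without P56 replicate 1 (log2 0.92, adjusted p = 0.0497) but was at a log2 change of 0.27 without P56 replicate 2.

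Psmb8 and Psmb9, the other induced catalytic subunits, lie in the major histocompatibility locus on chromosome 17, with the start of Tap1 between them. Psmb8 had 43.2, 23.3 and 31.5 CPM at P56, against 33.5, 32.9 and 29.4 CPM at P1. The P1 libraries all lay within the P56 range, and the log2 change of 0.03 ± 0.260 was below 0 in 7 of 20 alternatives. Psmb9 had 33.5, 15.8 and 18.6 CPM at P56, against 27.4, 22.6 and 27.3 CPM at P1. Here 2 of the P56 libraries lay below P1 and 1 above, and the log2 change of -0.19 ± 0.272 (edgeR adjusted p = 0.703) was 0.04 without P56 replicate 2. For both genes P56 replicate 2 was the lowest of the 3 P56 libraries, whereas it was the highest for 26 of the 38 members (68.4%) and 37.4% of all regions.

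**Figure D3:**
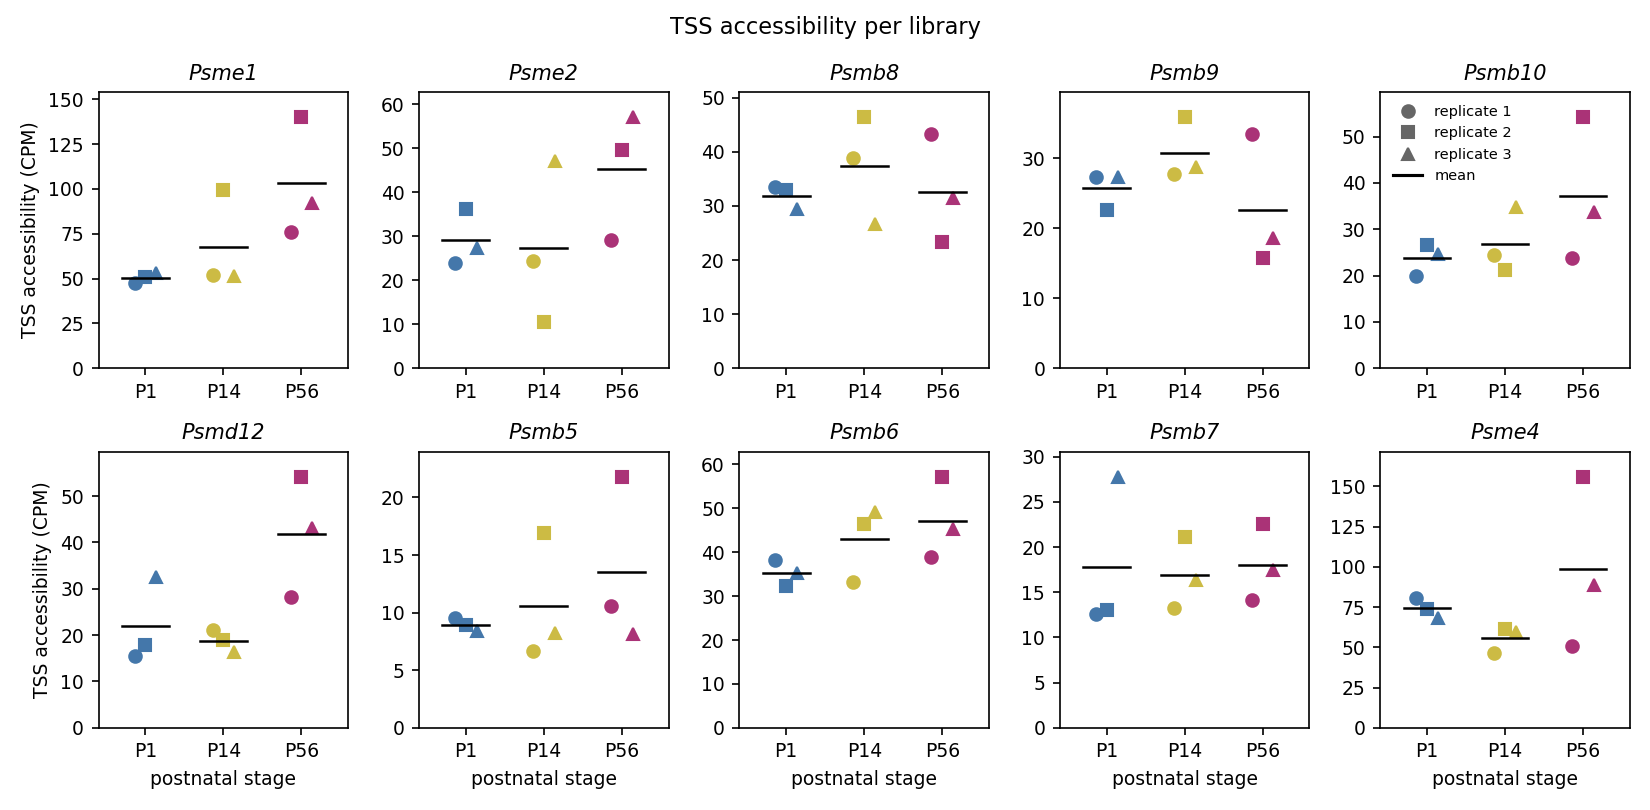
TSS accessibility in CPM of the 5 immunoproteasome genes, their 3 constitutive partners, Psmd12 and Psme4 in each library, by postnatal stage, with the mean of 3 libraries as a line; each panel has its own axis from 0. The P56 libraries of Psme1 (75.8 to 140 CPM) lie above all P1 libraries, while Psmb8 and Psmb9 overlap between the stages.

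Genes of induced and constitutive catalytic subunits were compared by the log2 ratio of their TSS counts within a library. To each count 0.5 was added, and the ratio needs no scaling between libraries. It measures accessibility and not the exchange of subunits in the complex. The regions may differ in width, so only the change of a ratio is read. Psmb8 over Psmb5 was 1.99, 0.09 and 1.87 in the P56 libraries, against 1.78, 1.85 and 1.78 in the P1 libraries. P56 replicate 2 stood far below the rest, and the difference of the means was -0.48, or 0.13 without that library (exact two-sided permutation p = 1, n = 3 each). Psmb9 over Psmb6 was -0.21, -1.83 and -1.26 at P56, against -0.48, -0.50 and -0.36 at P1, a difference of -0.65 with 1 P56 library above P1 and 2 below (exact permutation p = 0.4). It was -0.29 without P56 replicate 2 and -1.10 without P56 replicate 1. Psmb10 over Psmb7 was 0.74, 1.25 and 0.93 at P56, against 0.66, 1.02 and -0.17 at P1, a difference of 0.47 with overlap (exact permutation p = 0.4) that was 0.13 without P1 replicate 3 and 0.73 without P1 replicate 2.

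Over the 3 stages, the exact permutation test of the F statistic gave p = 0.786, 0.264 and 0.5 for the 3 pairs in the order above (adjusted over the 3 pairs, 0.786, 0.75 and 0.75). The smallest p that the exact permutation test can give is 0.1 for 3 libraries against 3 and 0.00357 over 3 stages. The test of P56 with P1 alone could therefore not pass the threshold whatever the ratios, and it cannot decide whether a pair shifted. The test over 3 stages could have passed it, and it detected no shift of a pair. The ratios of 2 pairs were lower at P56 and that of the third was higher, so the pairs shared no direction.

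**Figure D4:**
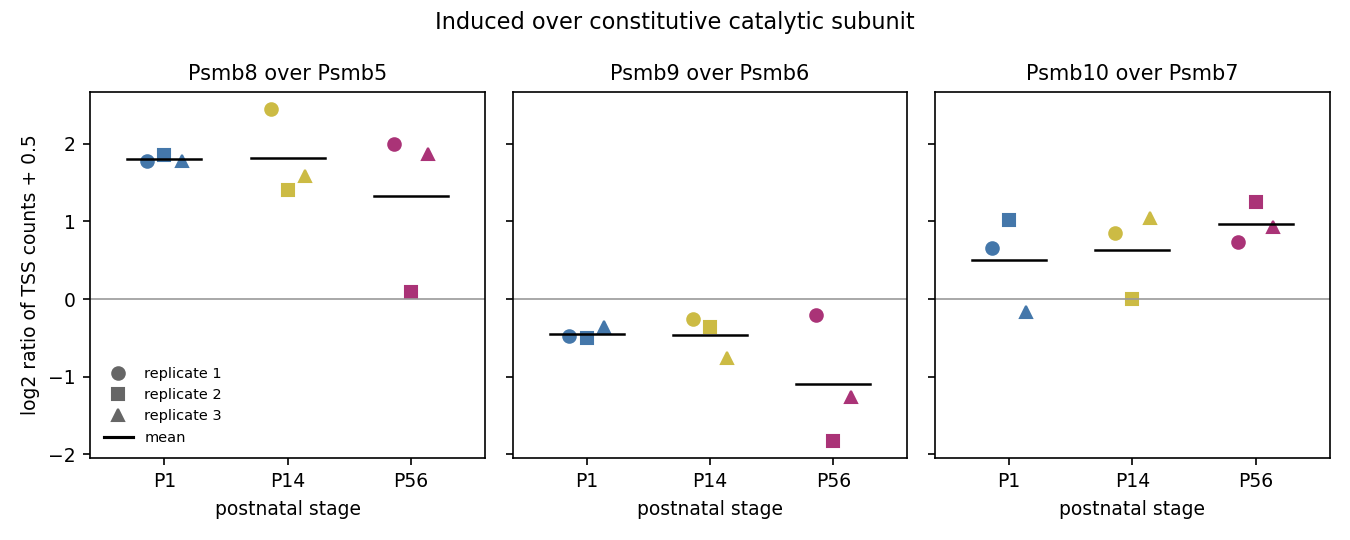
Log2 ratio of the TSS count + 0.5 of an induced over its constitutive catalytic subunit in each library, by postnatal stage, with the mean of 3 libraries as a line. The stages overlap for all 3 pairs, and P56 replicate 2 is the lowest library for Psmb8 over Psmb5 (0.09) and for Psmb9 over Psmb6 (-1.83).

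The core subunit genes restricted to other tissues served as members with no known role in heart muscle. Psma8, an alpha subunit of the testis, had 12.3, 12.0 and 6.99 CPM at P56, against 9.99, 9.59 and 6.30 CPM at P1, with overlap and a log2 change of 0.32 ± 0.358. Psmb11, a catalytic subunit of the thymus, had 27.3, 24.1 and 26.8 CPM at P56, against 22.2, 22.6 and 17.9 CPM at P1. Its stages did not overlap, and its log2 change was also 0.32 (± 0.256, edgeR adjusted p = 0.483), which is close to the median of all members.

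P14 was compared with P1 and P56 with P14, and the first shares its P1 libraries with the comparison above, the second its P56 libraries. For P14 with P1, 0 of the 38 members were called (0.0119% of all regions were called higher and 0% lower), also with DESeq2 and with limma-voom. At an unadjusted p below 0.05 there were 0 in edgeR and DESeq2 and 1, higher, in limma-voom (edgeR called 4.92% of all regions higher and 3.67% lower). The median log2 change was 0.11, against 0 over all regions, with 23 of 38 members above 0 (50% of all regions). It ran from 0.05 to 0.21 when 1 library was left out and was 0.01 with loess offsets, where 2 members were lower at an unadjusted p below 0.05. The P14 libraries lay above all P1 libraries for Psmb9, Psmd7 and Psmd14, 3 of 38 (9.02% of all regions), and below them for Psme4, 1 of 38 (7.87%). Psmd7 was at 23.3, 23.2 and 32.8 CPM at P14, against 11.7, 19.2 and 19.4 CPM at P1, a log2 change of 0.65 ± 0.330, and Psme4 at 46.6, 61.2 and 59.4 CPM at P14, against 80.8, 74.0 and 68.3 CPM at P1, a log2 change of -0.44 ± 0.268.

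For P56 with P14, 0 of 38 members were called (0.00296% of all regions were called higher and 0% lower), and 0 with DESeq2 and limma-voom. At an unadjusted p below 0.05, 7 were higher in edgeR (6.04% of all regions), 4 in DESeq2 and 6 in limma-voom, and 0 were lower (4.04%). Without P56 replicate 2 only 2 were higher, and without P14 replicate 1 only 3. These 7 were Psmb1, Psmc3, Psmd9, Psmd12, Psme1, Psme2 and Psme4. Psmd12 had 28.2, 54.2 and 43.1 CPM at P56, against 21.1, 19.0 and 16.4 CPM at P14, without overlap, and the smallest p of the 38 (log2 1.13 ± 0.339, unadjusted p = 0.00217, edgeR adjusted p = 0.308). Psmd9 had 92.5, 125 and 101 CPM at P56, against 70.0, 73.8 and 65.6 CPM at P14, also without overlap (log2 0.61 ± 0.193). The median over the members was 0.24, with 31 of 38 above 0 (48.4% of all regions), or 0.01 with 20 of 38 above 0 without P56 replicate 2, and the median over all regions was -0.02. The P56 libraries lay above all P14 libraries for Psmd9, Psmd12 and Psme3, 3 of 38 (7% of all regions), and below them for 0 (6.96%). The members' median log2 CPM was 5.15, 5.19 and 5.16 in the P1 libraries, 4.96, 5.49 and 5.34 in the P14 libraries and 5.12, 5.68 and 5.39 in the P56 libraries, so that the stages overlapped.

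The second table, of counts over called peaks in the same libraries, gave a measure with known positions; it is not independent of the TSS counts. Of the 36 subunit genes with a RefSeq start, 26 (72.2%) had a peak within 1 kb, against 33% of all 27025 genes. Those 26 include the 5 genes without a TSS region. For the 21 genes with both, the mean TSS count was 0.376 times (Psme2) to 5.6 times (Psmd9) that of the peak. A TSS count can thus include reads from outside the peak at the start. No peak lay within 1 kb of the starts of Psmb4, Psmb5, Psmb8, Psmb10, Psmb11, Psmc1, Psmc4, Psmd6, Psmd8 and Psme1. Levels per kb of peak can be compared between genes: at P56 they ran from 17.4 ± 5.73 CPM per kb at Psma5 to 41.3 ± 9.14 CPM per kb at Psme2 (SD, n = 3). Psmb3 came next at 35.8 ± 15.1 CPM per kb, and the SDs of most neighbours in this order overlapped. The Psme2 peak also holds the start of Rnf31, 641 bp away, and that of Psmb9 the start of Tap1, the peptide transporter gene, 226 bp away.

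For P56 with P1, 0 of the 26 peaks were called by edgeR (0.212% of all peaks were called higher and 0.232% lower), and 1, Psmd12, was higher at an unadjusted p below 0.05 (6.27% of all peaks), with 0 lower (9.77%). The log2 change was above 0 for 22 of 26, with a median of 0.30. Peaks within 1 kb of any RefSeq start were above 0 in 70.4% of 7552 cases, with a median of 0.18, and all peaks in 52.4%, with a median of 0.03. Without P56 replicate 2 the median of the 26 was 0.05. The Psmd12 peak (chr11:107478392-107480247) had 38.1, 65.0 and 63.5 CPM in the P56 libraries, against 25.5, 25.5 and 45.0 CPM in the P1 libraries. The stages overlapped through P1 replicate 3 as they did at the TSS, with a log2 change of 0.78 ± 0.302 (unadjusted p = 0.0112, adjusted p = 0.188).

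The Psmd9 peak was the one among the 26 without overlap between P56 and P1 (8.54% of all peaks had all P56 libraries higher and 10.1% all lower), with 31.5, 35.8 and 26.7 CPM at P56, against 19.7, 15.5 and 24.6 CPM at P1 (log2 0.65 ± 0.337, edgeR adjusted p = 0.327). The peak of Psma5 was the lowest, at a log2 change of -0.54 ± 0.352, while its TSS count was at 0.15 ± 0.350. The genes without a TSS region had peak changes of -0.03 (Psma2), 0.21 (Psma4), 0.09 (Psmc2), 0.03 (Psmc5) and 0.22 (Psmd10), none of them called. Psmb9 differed in sign between the tables, with a log2 change of 0.18 ± 0.274 at the peak and -0.19 ± 0.272 at the TSS. Over the 4758 genes with a start, a TSS region and a peak over it, the changes in both tables had a Spearman rho of 0.679 across genes, which share their libraries.

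**Figure D5:**
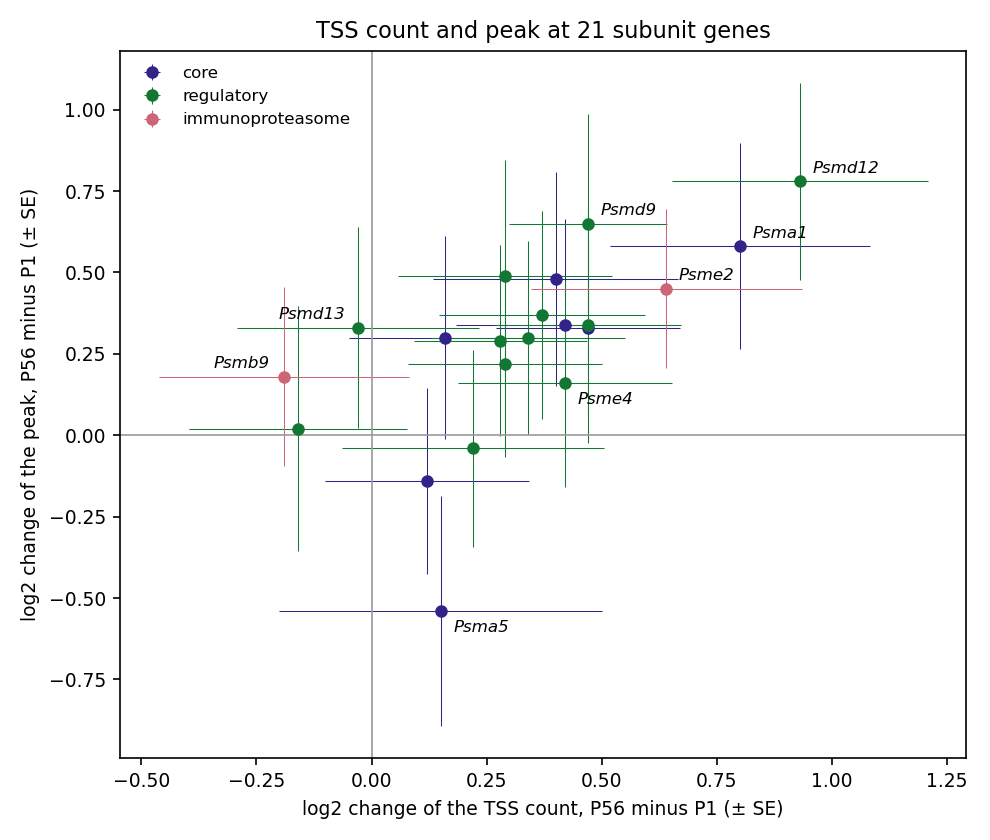
Log2 change, P56 minus P1, of the TSS count (horizontal) and of the peak at the start (vertical) for the 21 subunit genes that have both, with bars of the SE and colours for the subunit group. Psmd12 is at the upper right (0.93 at the TSS and 0.78 at the peak), and Psma5 is the lowest at the peak (-0.54).

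Since Psme1 had no peak at its start, the peaks around it were read. The nearest (chr14:55573897-55577062) lies 1432 bp from the start and holds the start of Fitm1, a muscle lipid-droplet gene 2820 bp from that of Psme1 and without a TSS region in the table analysed here. It had 110, 181 and 140 CPM in the P56 libraries, against 50.2, 107 and 120 CPM in the P1 libraries. The stages overlapped, and the log2 change of 0.65 ± 0.257 was not called (edgeR adjusted p = 0.194). The peak over Psme2 and Rnf31 (chr14:55589160-55593077) had a log2 change of 0.45 ± 0.244, and the peak at Emc9 between them 0.35 ± 0.273. Whether reads of the Fitm1 peak fall into the Psme1 TSS region was not tested, because the width of the region is not stated.

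Other genes of the pathway were counted by lists chosen with earlier results known. For P56 with P1, 1 of 14 tested assembly and associated factors was called higher, 1 of 15 regulators of proteasome genes, 0 of 19 ubiquitin supply and shuttle genes, 3 of 13 muscle ubiquitin ligases and 1 of 22 antigen presentation and interferon genes (1.72% of all regions). None was called lower. The median log2 changes were 0.29, 0.45, 0.38, 0.39 and 0.36 in this order, each near the 0.33 of the subunit genes, and that of the 12 cardiomyocyte markers was 0.82, with 6 called higher.

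Adrm1, a ubiquitin receptor of the regulatory particle, had 96.0, 156 and 126 CPM in the P56 libraries, against 63.0, 74.0 and 83.5 CPM in the P1 libraries. The stages did not overlap, and it rose by 0.78 ± 0.188 on the log2 scale (edgeR adjusted p = 0.0248). Of the regulators, Stat3, a transcription factor of cytokine signalling, rose by 0.62 ± 0.153 (adjusted p = 0.0284), with 194, 312 and 221 CPM at P56, against 141, 159 and 176 CPM at P1. Nfe2l2, a factor that binds antioxidant elements, had 6.17, 21.8 and 17.5 CPM at P56, against 3.04, 8.91 and 7.88 CPM at P1. These rest on low counts, 7, 29 and 15 at P56 and 7, 13 and 15 at P1. Its stages overlapped, and its log2 change of 1.28 ± 0.415 was not called (adjusted p = 0.0807). Mafk had a smaller p (log2 0.73 ± 0.210, adjusted p = 0.0523), and Nfe2l1 was at 0.45 ± 0.172 (adjusted p = 0.13). Of the 15 regulators, 3 had a log2 change below 0, among them Ddi1 (-0.55) and Ngly1 (-0.37). Of the ubiquitin supply and shuttle genes, Nploc4, a cofactor of the unfoldase Vcp, had the smallest p (log2 0.50 ± 0.181, adjusted p = 0.113).

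The ligases that rose were Trim54, which binds microtubules and sarcomeres in muscle, Stub1, which pairs with chaperones, and Asb2, which targets filamins. Trim54 had 28.2, 80.5 and 39.6 CPM at P56, against 19.1, 17.1 and 21.0 CPM at P1, without overlap (log2 1.39 ± 0.291, edgeR adjusted p = 0.0115). Stub1 rose by 1.00 ± 0.255 (adjusted p = 0.0322) with overlap between stages, and Asb2 by 0.74 ± 0.196 (adjusted p = 0.0375) without. Trim63, the ligase of atrophying muscle, was at 0.55 ± 0.220 (adjusted p = 0.144). Among the interferon genes, Irf9, a transcription factor of the interferon response, had 81.9, 128 and 88.5 CPM at P56, against 60.4, 56.2 and 55.7 CPM at P1, without overlap, and rose by 0.80 ± 0.193 (adjusted p = 0.0251). Tap1, whose start lies within the Psmb9 peak, was at 0.34 ± 0.237 (adjusted p = 0.412). P56 replicate 2 was the highest P56 library for all of these except Tap1.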

How the data were processed

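The authors deposited unnormalised read counts for 9 ATAC-seq libraries, 1 table per TSS region and 1 per peak, per the file headers. The submitters' processing notes list, in no stated role, the aligner BWA 0.7.10, the counter featureCounts 1.4.2, the peak caller MACS 1.4.0, bcl2fastq 2.17.1.14, bedtools 2.26, SAMtools 1.3.1 and the build GRCm38; the width of a TSS region and the pooling for peak calls are not given in the sources used here. Every deposited region had a mean count of at least 10. Both tables went through edgeR 4.0.16 in R 4.3.3 (TMM, default expression filter, 1 coefficient per stage, quasi-likelihood F test, two-sided, Benjamini-Hochberg over all regions, threshold 0.05). CPM use TMM-scaled library sizes. The fits were also run on simulated counts with the same spread for every region and no effect of single libraries. Such counts cannot show how the fits handle a library that stands apart. Members named in full were those called, the member of smallest p and those of highest and lowest change in each class, and the immunoproteasome genes with their constitutive partners. The members and lists were chosen with earlier results of these data known. Alternatives were other scalings, filters and thresholds, DESeq2 1.42.0, limma-voom (limma 3.58.1), a replicate block, fits of the compared stages alone and leaving out each library. Promoter sequences are RefSeq's; genes with no entry were Psma8, Psmb1, Psmb2, Psmb7, Psmc3, Psmd3 and Psmd7.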

Additional observations from a re-analysis of the deposited data

How the results depend on the processing

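The members called for P56 with P1 numbered 0 with loess offsets and at an adjusted p below 0.01, and 0 to 5 when a library was left out (5 without P56 replicate 1, 0 without P56 replicate 2 and 0 without P1 replicate 2), while over all regions 122 to 1164 were then called higher, against 581. Over all regions, 142 were higher and 43 lower with the compared stages alone, 153 and 117 at a mean count of at least 20, 246 and 1 with DESeq2's test, and 804 and 143 with limma-voom, with 1 member called in each. With a replicate block 2 members were called, Psme1 and Psmd12, and 1387 regions were higher and 595 lower, against 581 and 272. The labels state no pairing by replicate number. Libraries of different stages had a Spearman rho of 0.749 to 0.874 over the log2 CPM of all tested regions. To look for pairing, the mean of its stage was subtracted from each library in every region. The deviations left over had correlations of 0.22, 0.04 and -0.07 for same-numbered libraries of P56 and P1. For differently numbered ones they were -0.27 to 0.25. So few values cannot decide whether the libraries are paired. For P56 with P14, 0 to 1 were called when a library was left out, and the median was 0.01 to 0.35. The peak median for P56 with P1 was 0.05 to 0.41 then, and -0.06 without both P1 replicate 1 and P56 replicate 2. Psmb8 over Psmb5 was -0.82 to 0.13 then, and 0.12 without both libraries. Single genes changed sign as follows. With library size alone Psma7 was at -0.03, Psmb7 at -0.11, Psmc3 at -0.05 and Psmb8 at -0.10; with loess offsets Psma7 was at -0.11, Psmc3 at -0.06 and Psmb8 at -0.17; at a mean count of at least 20 Psma7 was at -0.04, Psmb7 at -0.12, Psmc3 at -0.07 and Psmb8 at -0.12. With the factors of the peak table Psmb7 was at -0.03 and Psmb8 at -0.04, and with limma-voom Psmb8 was at -0.02. When a library was left out, Psma7 ran from -0.15 to 0.24, Psmb7 from -0.22 to 0.51, Psmb9 from -0.61 to 0.04, Psmc3 from -0.08 to 0.20, Psme4 from -0.12 to 0.73 and Psmb8 from -0.24 to 0.24; without both libraries Psma7 was at -0.03, Psmb7 at -0.45, Psmb9 at 0.08, Psme4 at -0.07 and Psmb8 at 0.28. The cause of these changes was not tested. Direction and side of the threshold were kept by 382 single-gene values, while 5 newly passed it and 3, all of Psme1, missed it. Depth limits P14 most, with 481217 counts in its shallowest library.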
